A study of Homo sapiens with 9 samples.

Results

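The genes described here are 10 genes of heme breakdown, iron storage and iron transport: HMOX1, BLVRA, BLVRB, FTH1, FTL, TFRC, SLC40A1, SLC11A2, IREB2 and NCOA4. They were chosen by name, with earlier results of these data known. All 10 were found among the 28307 genes of the deposited count table. They passed the filter on low counts that left 15619 genes for testing. The cells were SW620, an established human line from a lymph node metastasis of a colon adenocarcinoma, labelled wild type; low-attachment plates kept the cells in suspension, and the medium held insulin, basic FGF and EGF. Each of 3 groups held 3 messenger RNA libraries. The untreated cells (0AB) received no aminoglycoside, the SM cells 120 µM streptomycin and the DSM cells 120 µM dihydrostreptomycin, each for 48 h. Streptomycin is an antibiotic that binds the small subunit of the bacterial ribosome, and dihydrostreptomycin carries an alcohol on its streptose sugar where streptomycin carries an aldehyde. The series used 1 cell line and 1 concentration of each compound.

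Heme oxygenase 1, the product of HMOX1, opens the heme ring and releases iron, carbon monoxide and biliverdin, which the biliverdin reductases encoded by BLVRA and BLVRB reduce. Ferritin, a shell of heavy (FTH1) and light (FTL) subunits, stores iron in the cytosol, and NCOA4 is the receptor that carries ferritin to the lysosome for iron release. Iron enters cells through the transferrin receptor (TFRC) and leaves endosomes through the transporter DMT1 (SLC11A2), and ferroportin (SLC40A1) exports it. HMOX1 and both ferritin genes are known targets of the oxidative stress factor NRF2, and HMOX1 is repressed by BACH1. Iron regulatory proteins, one of them encoded by IREB2, bind hairpins called iron-responsive elements in the messenger RNA. Bound in the 5' untranslated region these proteins block translation, and bound in the 3' untranslated region of TFRC they protect the RNA from decay.

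Hairpins of this kind were searched for because iron regulatory proteins bind them. The search on the transcript strand asked for a C, 5 bases, the 6-base loop CAGTGN and 5 more bases, with the 5 bases on each side of the loop required to pair (G-T pairs allowed) and no other motif considered. It occurred in transcripts of 4 of the 10 genes, FTH1, FTL, TFRC and SLC40A1, and in 1.48% of 19669 protein-coding genes of GENCODE release 29. In the sequences below, read 5′ to 3′ from those reference transcripts with T for U, capitals mark the 6-base loop. The FTH1, FTL and SLC40A1 hairpins lie in the 5' untranslated region and the TFRC hairpins in the 3' untranslated region.
FTH1: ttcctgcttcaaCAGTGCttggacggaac
FTL: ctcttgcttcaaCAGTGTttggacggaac
SLC40A1: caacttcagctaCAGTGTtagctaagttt
TFRC site 1: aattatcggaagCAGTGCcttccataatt
TFRC site 2: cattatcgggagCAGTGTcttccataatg
TFRC site 3: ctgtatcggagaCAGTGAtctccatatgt
TFRC site 4: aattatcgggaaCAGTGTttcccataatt
A match is a description of these letters. No match in the other 6 genes, SLC11A2 among them, says only that this strict pattern is not in their listed transcripts. It does not show that they lack an iron-responsive element.

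Total counts lay between 39315662 (SM replicate 2) and 65562227 (untreated replicate 1) per library. Of 11 colon epithelium markers 8 averaged over 1 CPM (a gene's reads per 1000000 reads counted in the library), with EPCAM at 416 to 459 CPM and VIL1 at 400.1 to 506 CPM, while KRT20, CDX1 and GPA33 were below 1 CPM in all 9 libraries. Of 6 erythroid markers 0 averaged over 1 CPM, and 2 were at 0. The summed macrophage markers lay at 21.2 to 26.3 CPM in untreated, 22.5 to 24.5 CPM in SM and 23.7 to 30.1 CPM in DSM libraries, most of it from CD68 and LYZ. Libraries with the same replicate number deviated together across groups. Every comparison was therefore fitted without and with the replicate number as a block. The fit without the block was planned as the main one, and the fit with it as an alternative.

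The first question was whether SM changed these genes. HMOX1, FTL and FTH1 rose with SM in the fit with the replicate block, by 1.75-fold, 1.19-fold and 1.14-fold, and the other 7 genes did not pass in either direction. In the planned main fit, without the block, 0 of the 10 genes passed in edgeR's quasi-likelihood test with Benjamini-Hochberg adjustment over all 15619 genes. There 3 of the 10 had an unadjusted p under 0.05. That fit called 3 genes in all, 0.0192% of those tested, against 365 at an unadjusted p under 0.05. DESeq2 without the block called 1 member, HMOX1, among 0.0896% of all genes. With the block the background was 2.74% called, 1.2% as higher, against 3 of 10 members, all higher. In raw CPM the SM and untreated libraries did not overlap for HMOX1, FTH1 and FTL, 3 of 10 members against 6.77% of all tested genes. The members were chosen with earlier results of these data known. These counts therefore describe the members and do not test them as a set.

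HMOX1 (gene ID 3162, chromosome 22, 35381096 to 35394207 in GRCh38.p14) counted 39.3, 37.8 and 26.4 CPM in untreated replicates 1, 2 and 3. The SM replicates stood at 58.5, 72.8 and 50.04 CPM, and the DSM replicates at 36.9, 37.3 and 30.4 CPM. The lowest SM library was above the highest library of both other groups, and replicate 3 was the lowest library of every group. The means were 34.5 ± 7.06 CPM untreated, 34.8 ± 3.87 CPM with DSM and 60.5 ± 11.5 CPM with SM (SD, n = 3). The untreated and DSM means differed by less than their spread. The log2 fold change with SM was 0.80 (SE 0.18, 95% interval 0.38 to 1.22, edgeR adjusted p = 0.9999) without the block and 0.80 (SE 0.06, interval 0.67 to 0.94, adjusted p = 8.94e-07) with it. DESeq2 without the block gave an adjusted p of 0.00583. The difference in log2 CPM was 0.58, 0.95 and 0.92 in pairs 1, 2 and 3.

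The biliverdin reductases, which act on the product of heme oxygenase, did not follow. BLVRA, the enzyme for biliverdin IXα, counted 11.5, 10.1 and 9.27 CPM untreated and 10.7, 10.3 and 10.2 CPM with SM, so that the groups overlapped. Its log2 fold change with the block was 0.01 with an interval of -0.14 to 0.16. BLVRB, which also acts as a flavin reductase, counted 5.75, 5.99 and 6.06 CPM untreated and 5.95, 6.54 and 6.29 CPM with SM. It was higher in 3 of 3 pairs by 0.05 to 0.13, but its blocked log2 fold change of 0.07 had an interval of -0.14 to 0.27 (edgeR adjusted p = 0.821). Neither gene was called in any comparison.

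**Figure D1:**
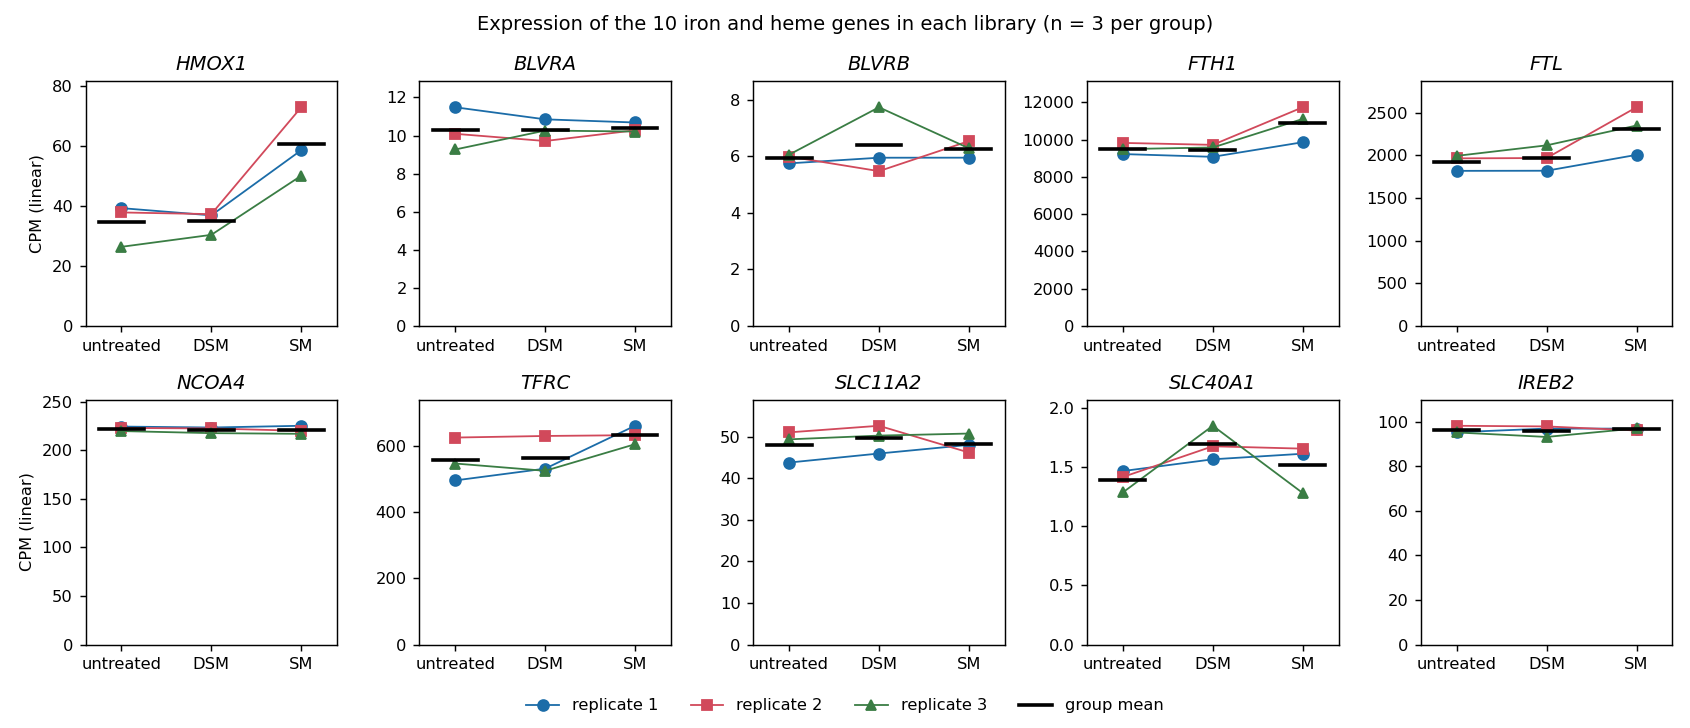
CPM of each of the 10 genes on a linear axis from 0, for untreated, DSM and SM cells. Points are libraries, lines join libraries of the same replicate number, and black bars are group means of 3. For HMOX1, FTH1 and FTL every SM library lies above every untreated library, while the IREB2 and NCOA4 points lie close together in all groups.

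The ferritin subunit genes were the most abundant members. Per kilobase of GENCODE exon, the untreated means were 4683 CPM for FTH1 and 2194 CPM for FTL, against 70.5 for TFRC, 54.5 for NCOA4, 14.3 for HMOX1, 8.90 for IREB2, 5.64 for BLVRA, 4.74 for SLC11A2, 3.51 for BLVRB and 0.320 for SLC40A1. The exon lengths merge all annotated transcripts, so these levels are approximate.

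FTH1 (gene ID 2495, chromosome 11, 61964285 to 61967634), the subunit that oxidises iron, counted 9219, 9818 and 9485 CPM in untreated replicates 1, 2 and 3. The SM replicates stood at 9854, 11728 and 11102 CPM and the DSM replicates at 9071, 9713 and 9571 CPM. All SM libraries were above all others, but SM replicate 1 exceeded untreated replicate 2 by little. The log2 fold change with SM was 0.19 (SE 0.06, edgeR adjusted p = 0.9999) without the block and 0.19 (SE 0.04, interval 0.11 to 0.27, adjusted p = 0.0054) with it, and the pairs differed by 0.10, 0.26 and 0.23. The blocked call was lost without untreated replicate 2 (edgeR adjusted p = 0.127), untreated replicate 3 (0.132) or SM replicate 3 (0.054), at log2 fold changes of 0.17 to 0.18.

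In GENCODE, 62.4% of the exon bases of FTH1 overlap BEST1, a gene on the opposite strand. Whether the counting used strand is not given in the sources used here, and reads of the overlap therefore cannot be assigned to a strand. BEST1 counted 56.6 to 65.8 CPM in untreated, 55.2 to 66.5 CPM in DSM and 69.7, 118 and 78.5 CPM in SM replicates 1, 2 and 3. Its blocked log2 fold change with SM was 0.52 (SE 0.13), which did not pass (edgeR adjusted p = 0.162). BEST1 stood at 0.577% to 1.01% of the FTH1 level, highest in SM replicate 2, and its part in the FTH1 count was not tested. Of the 2 ferritin pseudogenes in the table, FTH1P3 had at most 60 counts in a library and FTLP10 had 0, and how reads that match several copies were counted is not given in the sources used here.

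FTL (gene ID 2512, chromosome 19, 48965309 to 48966879), the light subunit that supports the iron core, counted 1818, 1965 and 1994 CPM in untreated replicates 1, 2 and 3. The SM replicates stood at 2006, 2564 and 2350 CPM and the DSM replicates at 1820, 1969 and 2118 CPM. SM and untreated libraries did not overlap, whereas DSM replicate 3 lay above SM replicate 1. The log2 fold change with SM was 0.25 (SE 0.08, edgeR adjusted p = 0.9999) without the block and 0.25 (SE 0.04, interval 0.16 to 0.34, adjusted p = 0.00092) with it. The pairs differed by 0.14, 0.38 and 0.24. Without the 3 libraries numbered 1, both ferritin genes also passed in edgeR without the block, FTL at 0.32 (adjusted p = 0.00327) and FTH1 at 0.25 (adjusted p = 0.00796).

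NCOA4 (gene ID 8031), the ferritin receptor for lysosomal delivery, was flat. Its 9 libraries lay between 217 and 225 CPM, and its blocked log2 fold change with SM was -0.02 (interval -0.08 to 0.05).

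Among the transport genes, TFRC (gene ID 7037, chromosome 3, 196049284 to 196082090) came nearest to a call. It counted 496, 625 and 547 CPM in untreated, 661, 633 and 605 CPM in SM and 531, 630 and 525 CPM in DSM replicates 1, 2 and 3. The groups overlapped, and replicate 2 stayed within 625 to 633 CPM in all 3 groups. The blocked log2 fold change with SM was 0.19 (SE 0.05, interval 0.07 to 0.30, edgeR adjusted p = 0.0825), and the pairs differed by 0.41, 0.02 and 0.15. TFRC passed with SM under limma voom with the block (adjusted p = 0.032) and in the blocked edgeR fit without SM replicate 2 (adjusted p = 5.08e-04, log2 fold change 0.27). The blocked value was 0.12 without untreated replicate 1 (edgeR adjusted p = 0.432), 0.11 without SM replicate 1 (0.185) and 0.086 without the 3 libraries numbered 1 (0.452).

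SLC11A2, the transporter of ferrous iron, counted 43.8, 51.0 and 49.4 CPM untreated and 48.02, 46.2 and 50.8 CPM with SM, with a blocked log2 fold change of 0.01 (interval -0.09 to 0.10). SLC40A1, the only known cellular iron exporter, had low counts, 65 to 100 per library. It counted 1.46, 1.41 and 1.28 CPM untreated and 1.61, 1.65 and 1.28 CPM with SM, and its interval of -0.24 to 0.46 was the widest of the 10. IREB2, which encodes an iron regulatory protein, lay between 93.1 and 98.1 CPM in all 9 libraries, with a blocked value of 0.002 (interval -0.07 to 0.07). The protein was not measured here. Of the 4 genes with a matching hairpin, FTH1 and FTL passed with the block, beside 2.74% of all tested genes. TFRC and SLC40A1 did not, and without the block 0 of the 10 members passed. Whether the hairpins bear on these values was not tested.

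**Figure D2:**
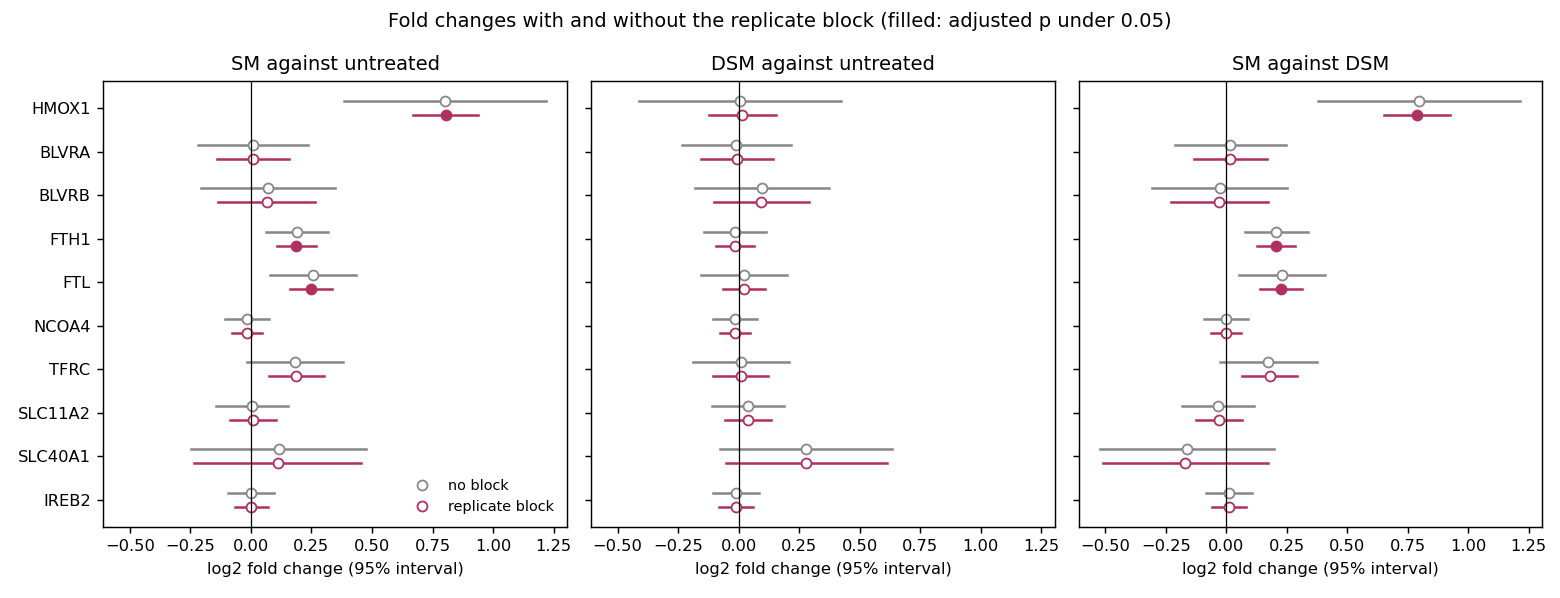
Log2 fold changes of the 10 genes with 95% intervals in the 3 comparisons, without the replicate block (grey) and with it (red). Filled points passed at an adjusted p under 0.05; these are HMOX1, FTH1 and FTL with the block, for SM against untreated and for SM against DSM, and none for DSM against untreated.

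The second question was whether DSM changed the same genes. DSM called 0 of 10 members and 0 of 15619 genes, which is 0% of those tested, in edgeR with or without the block and in DESeq2 without it. At an unadjusted p under 0.05 edgeR held 103 genes without the block and 650 with it, and 0 of the 10 members in either fit. The blocked log2 fold change of HMOX1 was 0.02 (SE 0.07, interval -0.12 to 0.15) and differed by -0.09, -0.02 and 0.20 in the pairs. FTH1 stood at -0.02 (interval -0.10 to 0.06) and FTL at 0.02 (interval -0.06 to 0.11). TFRC stood at 0.01 (interval -0.11 to 0.12) and NCOA4 at -0.02 (interval -0.08 to 0.05).

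SLC40A1 had the largest DSM value of the 10, with 1.56, 1.67 and 1.85 CPM against 1.46, 1.41 and 1.28 CPM untreated. The groups did not overlap, as for 4.58% of all tested genes, and the blocked log2 fold change of 0.28 had an interval of -0.05 to 0.61 (edgeR adjusted p = 0.9993). Leaving out 1 library moved it over 0.14, without DSM replicate 3, to 0.38. BLVRB reached 7.73 CPM in DSM replicate 3 against 5.95 and 5.47 CPM in the other two DSM libraries, and its interval was -0.10 to 0.29. BLVRA, SLC11A2 and IREB2 had blocked log2 fold changes of -0.01, 0.04 and -0.01.

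The third question was whether the aldehyde compound SM and its alcohol form DSM differed directly at the same concentration and time. This was the 1 pair of compounds compared, with p-values adjusted over all 15619 genes. HMOX1, FTH1 and FTL were higher with SM than with DSM in the fit with the block, 3 of 10 members against 3.88% of all genes called in either direction and 1.73% as higher. In raw CPM the SM and DSM libraries did not overlap for HMOX1 and FTH1, 2 of 10 members against 6.43% of all tested genes. These counts, too, only describe members chosen with earlier results known. Without the block edgeR called 0 genes, 0% of those tested, with 396 at an unadjusted p under 0.05, among them HMOX1, FTH1 and FTL. DESeq2 without the block called HMOX1 (adjusted p = 0.0068) among 0.0704% of all genes.

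The blocked difference of HMOX1 was 0.79 on the log2 scale (SE 0.06, interval 0.65 to 0.92, edgeR adjusted p = 1.22e-06), and the pairs differed by 0.67, 0.97 and 0.72. For FTH1 it was 0.20 (SE 0.04, interval 0.12 to 0.28, adjusted p = 0.00207), with pairs at 0.12, 0.27 and 0.21. For FTL it was 0.23 (SE 0.04, interval 0.14 to 0.31, adjusted p = 0.00194), with pairs at 0.14, 0.38 and 0.15. Without SM replicate 2 the FTL difference was 0.15 in the blocked fit (edgeR adjusted p = 0.0181) and 0.15 without the block. These are the same SM libraries as in the first comparison, so the results share their source.

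For 7 members no difference between the compounds was shown. TFRC was 0.18 higher with SM (interval 0.06 to 0.29, edgeR adjusted p = 0.0846), and passed in the blocked fit without untreated replicate 1 (0.0247) or SM replicate 2 (6.31e-04). Without SM replicate 1 its blocked value was 0.094 (edgeR adjusted p = 0.22), and without DSM replicate 2 its value without the block was 0.26 against 0.17 (adjusted p = 0.989). The intervals of the difference were -0.13 to 0.17 for BLVRA, -0.23 to 0.17 for BLVRB, -0.13 to 0.07 for SLC11A2, -0.06 to 0.08 for IREB2 and -0.06 to 0.06 for NCOA4. For SLC40A1 the interval of -0.51 to 0.17 was wide, at its low counts. In bulk RNA, a change in RNA per cell and a change in the share of cells that hold the transcript cannot be told apart.

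**Figure D3:**
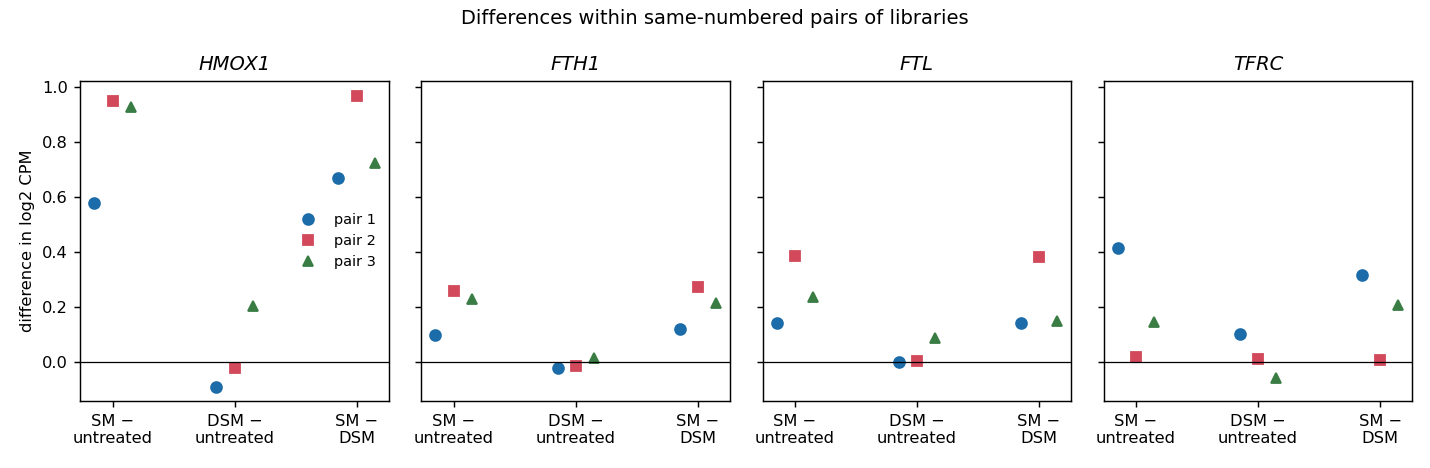
Differences in log2 CPM within same-numbered pairs for HMOX1, FTH1, FTL and TFRC, with 1 point per pair. All pairs are above 0 for SM minus untreated and for SM minus DSM, with TFRC pair 2 at 0.02 and 0.01, while DSM minus untreated lies between -0.09 and 0.20.

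Across the 9 libraries, after subtracting the mean of each replicate number, the log2 CPM of HMOX1 correlated with those of FTH1 (r = 0.97) and FTL (r = 0.96), and FTH1 with FTL (r = 0.96). Without that subtraction r was 0.79, 0.64 and 0.94. The points share libraries and depth. Only the replicate-number means were subtracted, so the difference between SM and the other groups stayed in these values. The correlations here therefore restate in part the SM difference and are not a separate result. The 5 genes of at least 5 CPM with the pattern most like HMOX1, by the same centred Pearson r among 10175 candidates, were TKT, L1CAM, AKR1C1, MYC and ALDH3A1, at 0.99 each. Those nearest to FTH1 were TXN, ZNF740, KDSR, SRXN1 and UTP3, and those nearest to FTL were RBL2, MED13L, CDK5RAP1, SEC14L4 and CHMP1B, at 0.98 to 1.00. Without the subtraction r was 0.65 (MYC) to 0.98 (ALDH3A1) for the HMOX1 genes and 0.83 (KDSR) to 0.96 (ZNF740) for the FTH1 genes. For the FTL genes it was 0.39 (MED13L) to 0.97 (SEC14L4). Such an r compares the shape of a pattern and not its size. The HMOX1 genes had blocked log2 fold changes with SM of 0.101 (L1CAM) to 1.055 (AKR1C1), against 0.80 for HMOX1. Those of the FTH1 genes were 0.099 (UTP3) to 0.247 (SRXN1), and those of the FTL genes 0.074 (RBL2) to 0.199 (SEC14L4).

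The other genes of the pathway were counted in 7 lists, and no list was tested as a set. With the block, 2.74% of all tested genes passed for SM against untreated and 3.88% for SM against DSM. In the fit without the block 0 genes of any list passed in any comparison, and DSM against untreated had 0 with the block as well. Among 7 regulators of HMOX1 transcription, MAFF and MAFG, small MAF proteins that pair with NRF2 or BACH1, rose with SM under the block and 0 fell. The median of this list was 0.083, against -0.001 for all tested genes. MAFF stood at 13.1 ± 1.14 CPM with SM and 10.7 ± 1.14 CPM untreated (SD, n = 3), with a blocked log2 fold change of 0.29 (SE 0.07, edgeR adjusted p = 0.0184). MAFG stood at 127 ± 13.5 against 112 ± 10.5 CPM and 0.18 (SE 0.04, edgeR adjusted p = 0.00752). In raw CPM the SM and untreated libraries of MAFG overlapped. NFE2L2, which encodes NRF2, its inhibitor KEAP1 and the repressor BACH1 had values of 0.08, 0.06 and 0.14 that did not pass (edgeR adjusted p of 0.343, 0.453 and 0.196). These 3 were added to the list's named genes after their values were seen.

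Among 12 heme carriers and the second heme oxygenase, 1 passed for SM against untreated under the block, beside 2.74% of all tested genes. SLC48A1, the transporter that moves heme out of endolysosomes, stood at 27.1 ± 6.70 CPM with SM and 20.9 ± 3.56 CPM untreated, a log2 fold change of 0.35 (SE 0.06, edgeR adjusted p = 0.00121). It was also higher than with DSM, by 0.30 (SE 0.06, edgeR adjusted p = 0.00541). In raw CPM the groups overlapped, at 19.4 to 31.2 with SM, 16.9 to 23.8 untreated and 16.96 to 26.25 with DSM. The list's median with SM was 0.01. HMOX2, the constitutive heme oxygenase, was measured at 104 ± 4.21 against 102 ± 4.94 CPM, and its value of 0.02 did not pass (adjusted p = 0.862); it was chosen after its value was seen.

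Of 8 heme synthesis enzymes 0 passed for SM against untreated, with a median of 0.021. FECH, ferrochelatase, which inserts iron into the ring, passed only for SM against DSM, at 0.23 (SE 0.06, edgeR adjusted p = 0.0329) with 16.9 ± 2.53 against 14.4 ± 1.68 CPM. Of 20 tested genes of mitochondrial iron import and iron-sulfur cluster assembly, 0 passed for SM against untreated. ISCU, the assembly scaffold, passed for SM against DSM at 0.17 (SE 0.04, edgeR adjusted p = 0.0323). That is 1 of 20, near the 3.88% of all tested genes called in that comparison. For FECH and ISCU the SM value sat above and the DSM value below untreated, and neither of those differences passed. In raw CPM the SM and DSM libraries of both genes overlapped.

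In the remaining lists 0 genes passed in any comparison with the block. These were 10 tested genes of iron import and ferrireduction, 9 of cytosolic iron-sulfur assembly and 10 of iron regulation and chaperones. Their medians for SM against untreated were 0.028, 0.004 and -0.039. The only value above 0 in the iron regulation list was BMP6, at 0.76 (SE 0.22, edgeR adjusted p = 0.0732). BMP6 averaged 1.08 ± 0.196 CPM with SM and 0.651 ± 0.244 CPM untreated, at 28 to 59 counts per library. It was named after its value was seen. SLC39A14, an importer of iron and zinc, stood at 246 ± 4.28 CPM with SM and 245 ± 3.73 CPM untreated, and STEAP1, of the metalloreductase family, at 55.0 ± 8.30 against 53.5 ± 7.87 CPM. CIAO1 and CIAO2B, of the cytosolic assembly complex, had values of 0.06 and -0.04, and PCBP1 and PCBP2, which deliver iron to ferritin, of -0.02 and -0.01. Over the 10 members the blocked median for SM against untreated was 0.088, with 9 values above 0, and 49.4% of all tested genes were above 0. Among these 9 values, IREB2 at 0.002, SLC11A2 at 0.008 and BLVRA at 0.01 were close to 0. For SM against DSM the median was 0.015, with 6 values above 0. For DSM against untreated it was 0.012, also with 6 above 0.

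**Figure D4:**
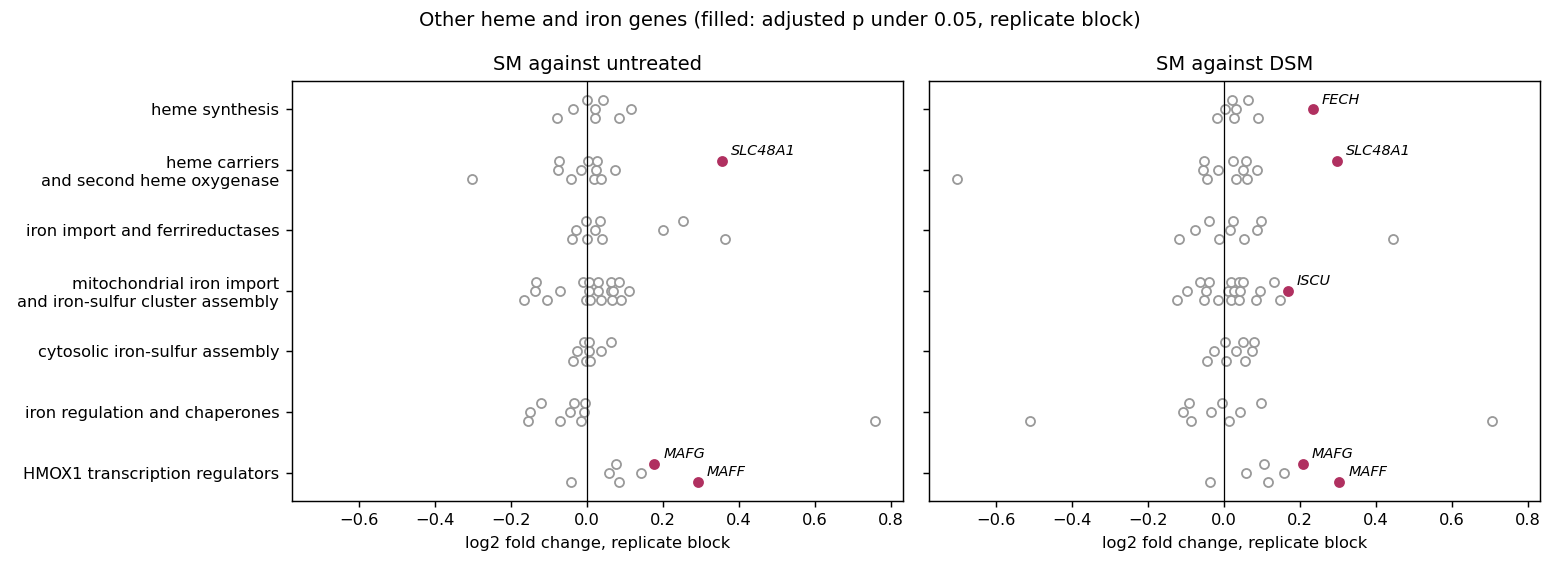
Blocked log2 fold changes of the tested genes of 7 other heme and iron lists, for SM against untreated (left) and SM against DSM (right), with 1 point per gene. Filled points passed at an adjusted p under 0.05; they are SLC48A1, MAFF and MAFG on the left, and these 3 with FECH and ISCU on the right.

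AKR1C1 and NQO1, NRF2 targets outside these lists, were read beside HMOX1. AKR1C1 averaged 88.5 ± 24.9 CPM with SM, 42.6 ± 8.96 CPM with DSM and 42.1 ± 10.1 CPM untreated, and NQO1 1428 ± 153, 1129 ± 48.3 and 1122 ± 55.1 CPM (SD, n = 3). In the blocked fit the log2 fold change of AKR1C1 with SM was 1.05 (edgeR adjusted p = 2.45e-13). That of NQO1 was 0.34 (edgeR adjusted p = 7.33e-06), with HMOX1 at 0.80 between them. That fit called 2.74% of all tested genes. Both genes were picked by name, and NRF2 activity was not tested. Without the block neither AKR1C1 nor NQO1 passed (edgeR adjusted p of 0.9999 and 0.837). The core of the antioxidant response element bound by NRF2, TGACNNNGC on either strand, was searched in the RefSeq promoter windows (GRCh38.p14, 250 bases before to 50 after the start) of the 8 members listed there, with no other motif considered. HMOX1 and FTH1 have no entry. It was found in 1 of 2 NCOA4 windows and in none of the windows of the other 7 genes, FTL among them, against 13.3% of all windows. Sequence outside these short windows was not searched. A window without a match therefore does not show that a gene lacks the element.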

How the data were processed

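The labels' protocols give TRIzol extraction and NuGEN Universal Plus mRNA-seq libraries. Among the tools in the submitters' processing notes, which state no roles, are TopHat2 2.1.1 and featureCounts 2.0.0, with the build hg38, and also DESeq2 1.26.0 and cutadapt 3.4. The strand setting, multi-mapping rule and gene annotation were not given in the sources used here. The deposited raw counts, whole-number reads per gene, were analysed; a second deposited table of normalized values was not used. CPM are counts scaled to a library total of 1000000. In R 4.3.3, edgeR 4.0.16 (filterByExpr, minimum count 10 and total 15; TMM factors 0.981 to 1.02; robust quasi-likelihood, two-sided F test) was fitted to all 9 libraries, with Benjamini-Hochberg adjustment at 0.05. Alternatives were RLE or total scaling, no or stricter filtering, DESeq2 1.42.0, limma voom 3.58.1, 2-group fits, no robust estimation, the replicate block, and leaving libraries out.

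Replicates of a group differed by more than sampling noise. The design text calls them biological replicates, and the labels do not say what a replicate number shares. With the group means removed, libraries of the same number correlated at 0.227 to 0.582 in all 9 pairs, against -0.404 to 0.161 for different numbers, so the numbers were taken to pair the libraries. The members and lists were chosen with earlier results of these data known. All members were named, with up to 3 called genes of each other list, or its 2 most abundant where none was called. Log2 CPM for correlations used a prior count of 2. No protein sequences were used here.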

Additional observations from a re-analysis of the deposited data

How the results depend on the processing

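Without the block edgeR called 0 members in each comparison, and so did every leave-one-out fit without it. HMOX1 passed in DESeq2 without the block (1 member, for SM against untreated and SM against DSM). With the replicate block 3 members passed for SM against untreated and for SM against DSM under TMM, RLE or total scaling and in DESeq2, and 4 in limma voom, the fourth being TFRC. Leaving out 1 library in the blocked fit gave 2 to 4 members for SM against untreated and 3 to 4 for SM against DSM. Without the 3 libraries numbered 1, 2 passed without the block (FTH1 and FTL) and 3 with it, in both comparisons. No setting called a member for DSM against untreated. Over all genes, SM against untreated called 3 without the block, 5 without a filter, 14 in DESeq2, 0 in the 2-group fit and 73 without the libraries numbered 1. With the block it called 428, 427 under RLE, 390 under totals, 385 in DESeq2, 438 in voom and 308 without the libraries numbered 1. Leaving out 1 library gave 0 to 3 genes without the block and 149 to 569 with it (187, 169 and 149 without untreated replicates 1, 2 and 3, 268 without SM replicate 3). SM against DSM called 0, 3 without a filter, 11 in DESeq2 and 186 without the libraries numbered 1, and with the block 606, 603, 529, 510, 590 and 627 in the same order. Leaving out 1 library there gave 0 without the block and 265 to 846 with it (326 without SM replicate 3, 286 and 265 without DSM replicates 2 and 3). DSM against untreated called 1 gene with the block and without the libraries numbered 1. The causes were not tested.

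HMOX1, FTH1, FTL and TFRC kept their positive direction for SM against untreated and against DSM in every setting tried, and SLC40A1 kept its direction in all 3 comparisons, though its size did not hold. Leaving out 1 library in the blocked fit moved SLC40A1 over 0.05 to 0.227 for SM against untreated, 0.136 to 0.382 for DSM against untreated and -0.271 to -0.023 for SM against DSM. For values near 0, none of them called, the sign changed. For SM against untreated SLC11A2 was -0.045 and -0.044 without the libraries numbered 1, without and with the block, and IREB2 was -0.001 with no filter. For DSM against untreated BLVRA was 0.001 with the block and library totals, and 0.04 and 0.041 without the libraries numbered 1, and TFRC was -0.026 and -0.029 there. Leaving out 1 library, without or with the block, moved SM against untreated over -0.067 to 0.108 for BLVRA, -0.01 to 0.14 for BLVRB, -0.049 to 0.079 for SLC11A2, -0.02 to 0.018 for IREB2 and -0.034 to 0.001 for NCOA4. It moved DSM against untreated over -0.158 to 0.123 for HMOX1, -0.084 to 0.091 for BLVRA, -0.05 to 0.208 for BLVRB, -0.035 to 0.016 for FTH1, -0.02 to 0.069 for FTL, -0.079 to 0.098 for TFRC, -0.014 to 0.082 for SLC11A2, -0.027 to 0.021 for IREB2 and -0.032 to 0.007 for NCOA4. It moved SM against DSM over -0.022 to 0.069 for BLVRA, -0.139 to 0.121 for BLVRB, -0.079 to 0.039 for SLC11A2, -0.02 to 0.028 for IREB2 and -0.023 to 0.016 for NCOA4. SLC40A1, at 65 to 100 counts, is limited by depth.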
